A study of Mus musculus with 6 samples.

Results

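The acute phase proteins are plasma proteins whose amounts shift in blood during infection or injury. The 10 genes described here are Saa1, Saa2, Saa3, Orm1, Orm2, Crp, Apcs, Hp, Hpx and Lcn2. They were taken by name, and their probes were found through the RefSeq accession that the array files give for each non-control probe. This gave 11 probes, 1 for each gene and a second for Lcn2, out of 56605 probes and 22911 named genes on the array. Liver RNA came from 6 male mice that were 12 weeks old when the diets began. The control group (3 mice) ate only granulated regular food, and the soy group (3 mice) ate 75% of that food with 25% soy bean powder, both for 28 days, and neither carried any other treatment. Each mouse gave 1 single-colour Agilent array, and strain is not given in the sources used here. With 3 arrays a group, the precision of every value is limited by their number.

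In an acute phase response, macrophages that meet microbes or damaged cells release interleukin 1, interleukin 6 and tumour necrosis factor. Hepatocytes carry receptors for these cytokines, and STAT3, NF-kB and C/EBP factors then raise transcription of the positive acute phase genes, while albumin and other negative acute phase genes are made less. In mice, serum amyloid A and serum amyloid P respond most, whereas C-reactive protein, the main marker in human blood, responds little.

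In a check of the liver label, all 8 hepatocyte markers examined (Serpina1a, Alb, Ttr, Apoa1, Hnf4a, Apob, Tat and Cps1) were well above background on all 6 arrays. The scanner software marked 37010, 36366 and 38163 spots as well above background in the control mice, against 31308, 31988 and 32498 in the soy mice, and no acute phase spot was saturated. All 11 acute phase probes were well above background on every array, so none of their values is a bound. Since whole liver was used, fewer cells of a type and less RNA per cell cannot be told apart.

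Several of these genes are close copies in the genome. Saa1 and Saa2 are next to each other on chromosome 7, with Saa3 and Saa4 nearby, and Orm1, Orm3 and Orm2 follow each other on chromosome 4, so a probe of 1 copy may also bind RNA of another. The RefSeq promoter table (GRCm38.p6) held 8 of the 10 genes, and the 250 bases before the gene start are shown for 4 of the 6 genes with a range above 1 (log2) between soy-fed mice (Saa1, Saa2, Orm2 and Lcn2) and for Crp, which varied least between them. Each sequence runs 5′ to 3′ on the strand of the gene, with chr7:46742981-46743230 (minus strand) for Saa1, chr7:46751583-46751832 (plus) for Saa2, chr4:63362199-63362448 (plus) for Orm2, chr2:32387740-32387989 (minus) for Lcn2 and chr1:172697806-172698055 (plus) for Crp. Capitals mark matches to a C/EBP motif, TTNNGNAA, on either strand.
Saa1: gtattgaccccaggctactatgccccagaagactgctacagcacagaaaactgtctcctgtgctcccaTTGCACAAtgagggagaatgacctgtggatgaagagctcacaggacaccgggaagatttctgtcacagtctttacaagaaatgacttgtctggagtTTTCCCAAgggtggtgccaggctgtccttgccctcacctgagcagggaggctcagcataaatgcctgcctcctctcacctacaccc
Saa2: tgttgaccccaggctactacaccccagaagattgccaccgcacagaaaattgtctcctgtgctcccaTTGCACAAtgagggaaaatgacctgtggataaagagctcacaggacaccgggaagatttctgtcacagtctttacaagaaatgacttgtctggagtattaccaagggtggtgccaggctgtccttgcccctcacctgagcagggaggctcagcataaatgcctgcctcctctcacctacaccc
Orm2: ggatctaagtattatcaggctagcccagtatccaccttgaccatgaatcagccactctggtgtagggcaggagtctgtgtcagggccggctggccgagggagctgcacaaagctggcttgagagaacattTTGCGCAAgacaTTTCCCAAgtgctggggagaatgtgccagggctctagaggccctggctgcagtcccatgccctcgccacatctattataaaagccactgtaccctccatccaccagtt
Lcn2: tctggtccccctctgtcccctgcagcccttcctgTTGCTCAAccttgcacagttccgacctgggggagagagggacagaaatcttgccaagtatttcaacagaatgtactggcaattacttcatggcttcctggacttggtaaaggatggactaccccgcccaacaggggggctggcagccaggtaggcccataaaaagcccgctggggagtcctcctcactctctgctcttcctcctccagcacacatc
Crp: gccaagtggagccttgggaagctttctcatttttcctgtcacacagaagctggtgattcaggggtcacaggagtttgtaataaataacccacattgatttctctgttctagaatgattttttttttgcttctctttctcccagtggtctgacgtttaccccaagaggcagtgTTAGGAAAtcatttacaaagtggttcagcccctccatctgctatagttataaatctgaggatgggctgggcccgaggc

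The Saa1 and Saa2 stretches were identical at 238 of 251 aligned positions (94.8%), including the match TTGCACAA, whose first base lies 182 bases before the start of Saa1 and 183 before that of Saa2. The C/EBP motif was found in 7 of the 8 promoters (not in that of Apcs), and in 36.8% of 32851 promoter stretches of the same length. A STAT motif, TTCNNNGAA on either strand, was found only in Apcs among the 8, against 7.02% of all stretches. The NF-kB motif was found in none of the 8, against 7.25% of all. A match is a description of the letters and not a bound site, and a motif that is missing from this window may lie outside it.

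None of the acute phase genes passed the test for a change with the diet. Soy and control livers were compared with limma over all probes, with the Benjamini-Hochberg method. To pass, a probe needed both an adjusted p below 0.05 and a fold change beyond 1.5 upwards or 0.66 downwards. By this rule 0 of the 11 acute phase probes passed, beside 0.350% of all probes. At an unadjusted p under 0.05 in limma 1 of 11 did so (Saa3), beside 11.5% of all. The groups overlapped for all 11 probes, whereas they were apart for 18.0% of all probes. By the brightest probe of each gene, groups that do not overlap were seen for 0 of the 10 genes and for 20.4% of all genes, and 5 genes were higher and 5 lower in soy. The median log2 change was -0.00090 over the 10 genes and -0.010 over all probes. The values of each array are given below, gene by gene, as normalized signal (log2).

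**Figure D1:**
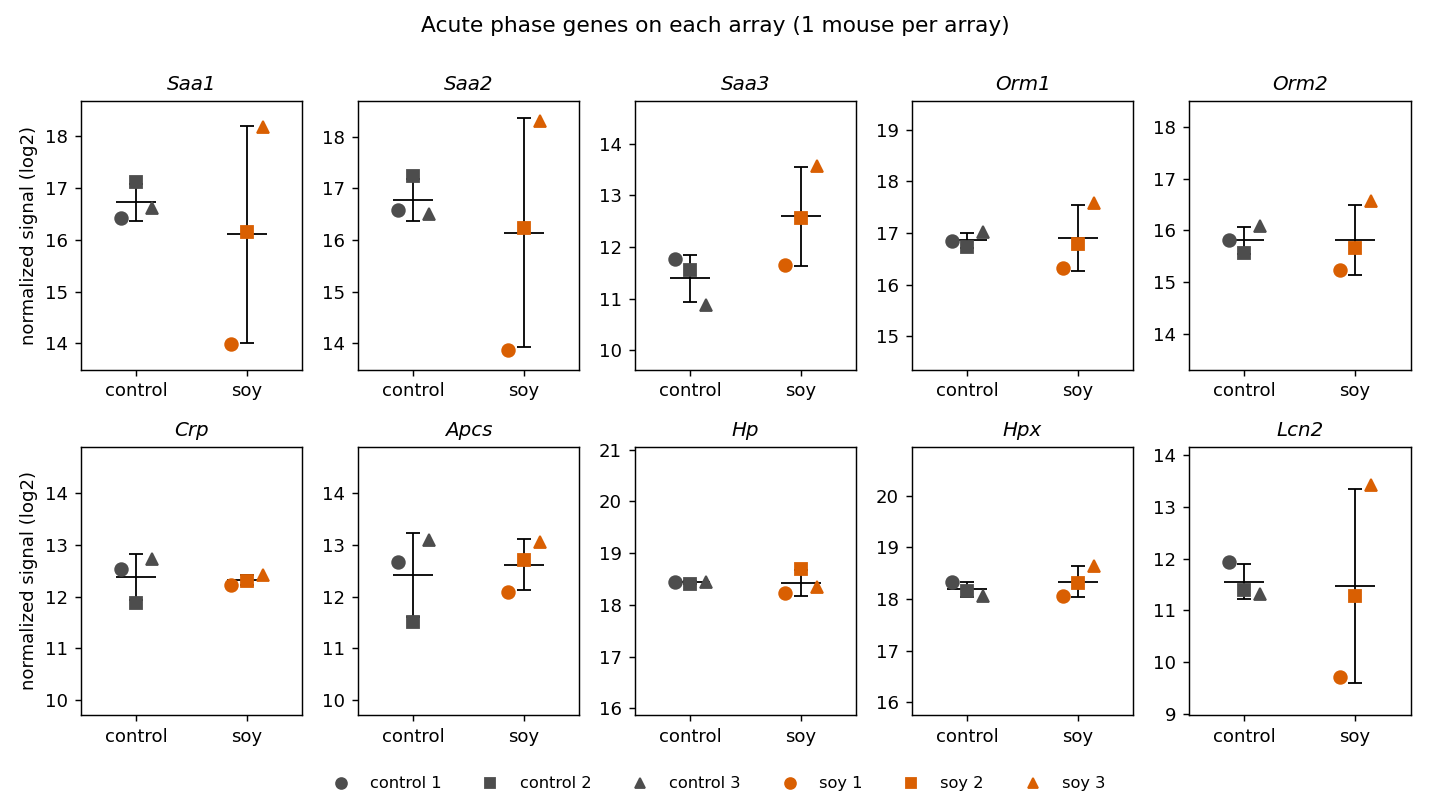
Normalized signal (log2, vertical axis) of the 10 acute phase genes on each of the 6 arrays, by the brightest probe. Points are arrays (1 mouse each, symbols give the replicate number), the bar is the group mean and the whiskers are 1 SD (n = 3); every panel spans the same number of log2 units. For Saa1, Saa2 and Lcn2 the control arrays lie close together between the low soy 1 and the high soy 3.

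Saa1 and Saa2 encode the serum amyloid A apolipoproteins that hepatocytes secrete and that circulate on high-density lipoprotein. Saa1 (NM_009117) measured 16.42, 17.13 and 16.62 in the control mice 1 to 3, whereas the soy mice 1 to 3 gave 13.98, 16.14 and 18.19. Soy 1 was thus below every control, soy 3 above every control, and soy 2 just below them. Group means were 16.72 ± 0.36 in control and 16.10 ± 2.10 in soy (SD, n = 3). The change was -0.62 (SE 0.90, 95% interval -2.71 to 1.47, limma adjusted p = 0.838). Saa2 (NM_011314) was 16.58, 17.25 and 16.51 in control and 13.88, 16.23 and 18.30 in soy, with the same arrays low and high. Its change was -0.64 (SE 0.95, 95% interval -2.85 to 1.56, limma adjusted p = 0.841). The Saa1 and Saa2 probes followed each other closely, their deviations from the control mean differing by 0.17 at most on any array. Between soy 1 and soy 3 the signal differed 18.4-fold for Saa1 and 21.5-fold for Saa2, whereas control arrays differed by 1.63-fold and 1.67-fold at most. The sign of both changes rested on a single mouse. Without soy 1 they were 0.44 for Saa1 and 0.49 for Saa2, and without soy 3 they were -1.66 and -1.72 (limma adjusted p = 0.444 and 0.468).

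Saa3, a serum amyloid A that macrophages and fat cells also make, had the largest mean difference of the 10 genes. Its values (NM_011315) were 11.76, 11.55 and 10.89 in control and 11.65, 12.56 and 13.56 in soy. Soy 2 and soy 3 were above every control array, and soy 1 lay among them. The change was 1.19 (SE 0.45, 95% interval 0.14 to 2.25), or 2.29-fold, with an unadjusted p of 0.0308 and a limma adjusted p of 0.372. It did not pass, and with 1 array left out it ranged from 0.71 (without soy 3) to 1.66 (without soy 1).

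Lcn2 encodes lipocalin 2, which binds bacterial siderophores and so keeps iron from microbes. Its brighter probe (NM_008491) was 11.94, 11.39 and 11.32 in control and 9.71, 11.28 and 13.43 in soy. The dimmer probe of the same transcript gave 9.55, 9.09 and 9.16 in control and 7.56, 9.12 and 11.13 in soy. On both probes soy 1 was lowest and soy 3 highest of the 6 arrays, and soy 2 lay among or just below the controls. The changes were -0.078 (SE 0.80, 95% interval -1.94 to 1.79, limma adjusted p = 0.982) and 0.0033 (SE 0.76, limma adjusted p = 0.999). On the brighter probe the change was 0.81 without soy 1 and -1.06 without soy 3. Between these mice the signal differed 13.2-fold on the brighter and 11.9-fold on the dimmer probe.

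Orm1 and Orm2 encode alpha-1-acid glycoproteins, abundant plasma proteins of the lipocalin family that carry small lipophilic molecules. Orm1 (NM_008768) was 16.84, 16.73 and 17.01 in control and 16.32, 16.79 and 17.58 in soy. Orm2 (NM_011016) was 15.81, 15.55 and 16.08 in control and 15.24, 15.66 and 16.57 in soy. Soy 1 was again lowest and soy 3 highest of the 6 arrays for both genes, over a smaller span than for Saa1. The changes were 0.040 (SE 0.29, 95% interval -0.63 to 0.71, limma adjusted p = 0.973) and 0.0082 (SE 0.32, 95% interval -0.73 to 0.75, limma adjusted p = 0.995). Without soy 3 both turned negative (-0.30 and -0.36).

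Crp and Apcs encode the short pentraxins, C-reactive protein, which binds phosphocholine on microbes and dying cells, and serum amyloid P component, which binds amyloid fibrils and DNA. Crp (NM_007768) was 12.54, 11.88 and 12.72 in control and 12.22, 12.30 and 12.42 in soy, so the soy arrays fell inside the span of the controls. Its change was -0.066 (SE 0.21, 95% interval -0.55 to 0.42, limma adjusted p = 0.932). Apcs (NM_011318) was 12.67, 11.52 and 13.09 in control and 12.09, 12.70 and 13.06 in soy, again inside the control span. Its change was 0.19 (SE 0.41, 95% interval -0.75 to 1.14, limma adjusted p = 0.894). Control 2 was the lowest array for both pentraxins, and without it the change was -0.26 for Apcs and -0.32 for Crp (SE 0.13, unadjusted p = 0.0451, limma adjusted p = 0.541). These were the only members of the 10 with a larger range in control than in soy.

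Hp and Hpx encode haptoglobin and hemopexin, which bind free haemoglobin and free haem in plasma and hand them to the liver. Hp (NM_017370) was 18.45, 18.40 and 18.45 in control and 18.23, 18.69 and 18.34 in soy. Soy 2 was highest here, not soy 3, and the control values were within 0.045 of each other. The change was -0.010 (SE 0.13, 95% interval -0.32 to 0.30, limma adjusted p = 0.986). Under another scaling of the arrays (the processed signal) its SE was 0.22, so the closeness of the Hp values depended on the scaling. Hpx (NM_017371) was 18.33, 18.15 and 18.06 in control and 18.05, 18.31 and 18.64 in soy, with soy 3 above every control. Its change was 0.15 (SE 0.16, 95% interval -0.23 to 0.53, limma adjusted p = 0.774).

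**Figure D2:**
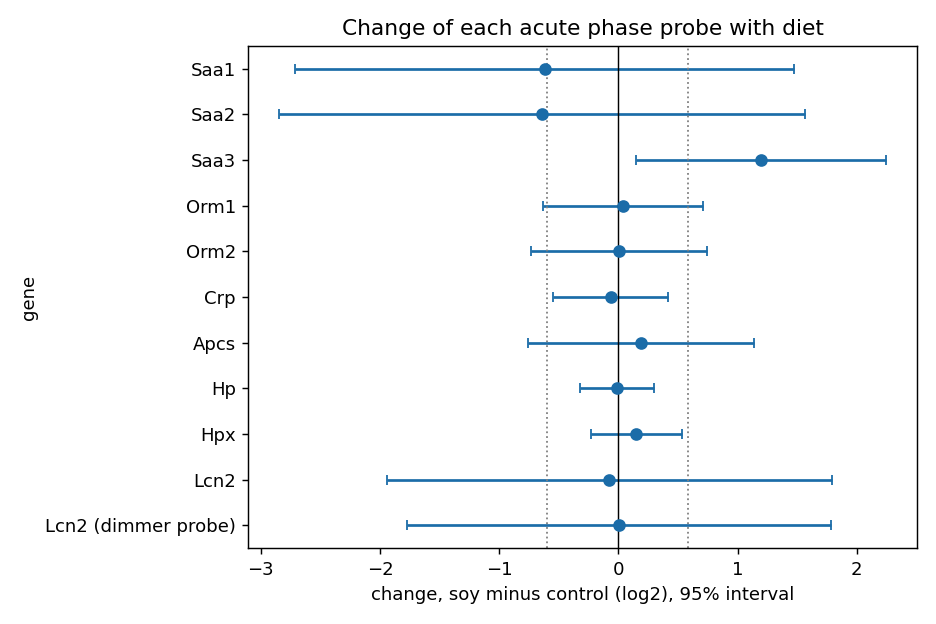
Change of each acute phase probe, soy minus control (log2, horizontal axis), by gene (vertical axis). Points are limma estimates, bars are 95% intervals, and dotted lines mark fold changes of 0.66 and 1.5. Only the interval of Saa3 (0.14 to 2.25) excludes 0, before adjustment, and those of Saa1, Saa2 and Lcn2 are the widest.

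The spread among soy-fed mice was then set beside that of all other probes, a comparison chosen after the values had been seen. Of 27282 probes well above background on all arrays, Saa2 (4.42, log2) and Saa1 (4.20) had the largest and second largest range over the soy arrays. The Lcn2 probes had ranks 4 (3.73) and 6 (3.57), and Orm3, another orosomucoid gene, had rank 5 (3.65). Rank 3 was a probe without a gene symbol. The median range over all these probes was 0.25 in soy and 0.29 in control. A range above 1 was seen in soy for 6 of the 10 genes (Saa1, Saa2, Saa3, Orm1, Orm2 and Lcn2) and for 1.89% of these probes. In control it was seen for 1 gene (Apcs) and for 3.77% of these probes. Soy 3 exceeded soy 1 by more than 1 for the same 6 genes, and for 0.561% of these probes. Of the 3 soy arrays, soy 1 was lowest for all 10 genes, and soy 3 was highest for 9, Hp being the exception, beside 31.0% and 32.3% of these probes. Among the 8 Kupffer cell markers described further on, soy 1 was lowest for 8 and soy 3 highest for 7. For the 14 other positive acute phase proteins described below, these counts were 8 and 11. They were 9 and 12 for the 20 signalling genes, and 1 and 1 for the 8 negative acute phase proteins. A soy range above 1 was also seen for 4 of the 6 red cell markers (Hbb-b1, Hbb-bt, Hba-a2 and Hba-a1), with soy 2 highest. It was seen for 1 of the 6 adipocyte markers (Cidec), 1 of the 7 inflammatory cytokines (Cxcl1) and 0 of the 8 Kupffer cell markers. An exact two-sided permutation test of 3 arrays against 3 cannot give a p under 0.1, so the difference in spread between the diets was not tested. It is a description of 3 mice per diet.

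**Figure D3:**
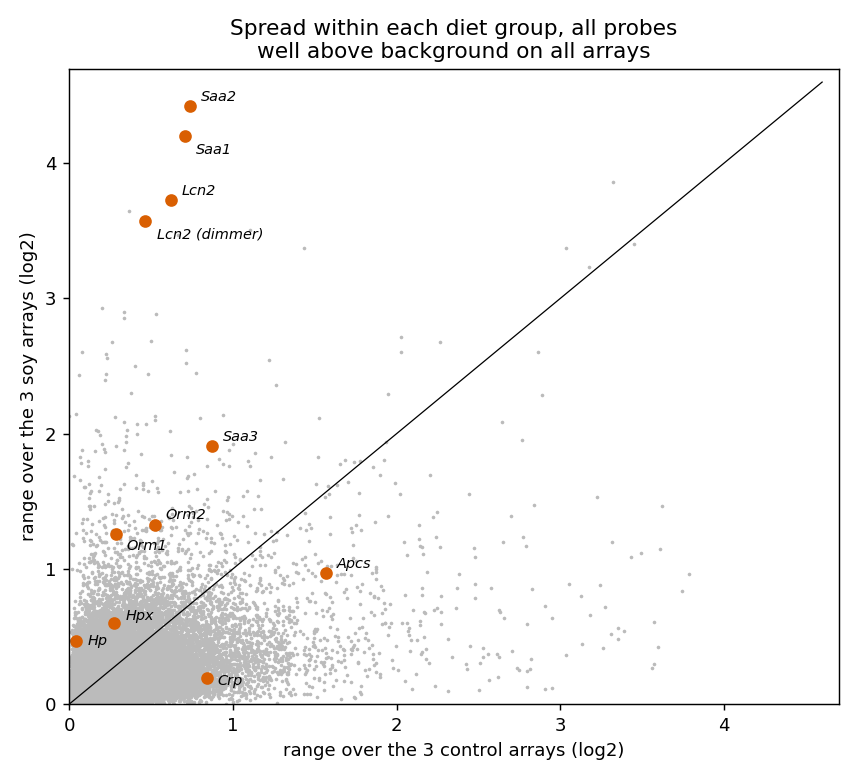
Range of the normalized signal (log2, highest minus lowest array) over the 3 control arrays (horizontal axis) and the 3 soy arrays (vertical axis). Grey points are 27282 probes well above background on all arrays, orange points are the 11 acute phase probes, and the line marks equal ranges. Saa1, Saa2 and both Lcn2 probes stand at the top left, with ranges of 3.57 to 4.42 in soy and at most 0.74 in control.

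The 3 soy arrays lay on 3 different slides, so slide and mouse cannot be told apart among them. Slide 1 held control 1, control 2 and soy 1, slide 2 held soy 2, and slide 3 held control 3 and soy 3. Each slide had a scan date entry of its own. Within slide 1, soy minus control was -2.79 for Saa1, -3.04 for Saa2 and -1.96 for Lcn2. Within slide 3 it was 1.56, 1.79 and 2.11. The direction was therefore opposite in the 2 slides that hold both diets. The control array of slide 3 differed from the control mean by -0.10 for Saa1, -0.27 for Saa2 and -0.23 for Lcn2. For Saa3 the difference was 0.00026 within slide 1 and 2.67 within slide 3. For Hp it was -0.20 and -0.10, and for Crp 0.015 and -0.31.

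Other positive acute phase proteins did not pass either. Of 14 further genes of this kind, 0 passed, with 4 higher and 10 lower in soy and a median change of -0.31 by the brightest probe, beside a median of -0.0056 and 0.458% passing over 22911 genes. At an unadjusted p under 0.05 in limma, 5 of the 14 were lower (Saa4, Il1rn, Lbp, Steap4 and Fgg) and 0 higher, where 7.04% of all genes were lower at this level. Saa4, counted in this list although it is the serum amyloid A that is made constitutively, was 15.01, 15.65 and 15.19 in control and 14.48, 14.13 and 14.71 in soy. Its soy arrays were thus all below its controls, with a change of -0.84 (SE 0.20, limma adjusted p = 0.163). Its soy arrays did not follow those of Saa1, soy 2 being its lowest. Lbp, which presents bacterial lipopolysaccharide to its receptor, changed by -0.55 (SE 0.16, limma adjusted p = 0.245). Steap4, a metalloreductase that cytokines induce, had the lowest change of the list, -0.88 (SE 0.29, limma adjusted p = 0.305). Orm3 was 9.57, 9.89 and 9.94 in control and 8.76, 9.30 and 12.41 in soy. This is the largest positive difference of the list (0.36, SE 0.83, limma adjusted p = 0.906), and it rested on soy 3 alone. The brightest genes were C3, the central complement component (0.012, SE 0.11), Fgg, a fibrinogen chain (-0.31, SE 0.13), and Fgb, another (-0.37, SE 0.16). A soy range above 1 was seen for 2 of the 14, Orm3 (3.65) and Fga, a further fibrinogen chain (1.21), which was 14.93, 15.96 and 15.86 in control and 14.56, 15.77 and 15.48 in soy. A dimmer Fga probe was 14.43, 14.33 and 14.48 in control and 13.30, 13.30 and 13.86 in soy, without overlap, a change of -0.93 (SE 0.16, limma adjusted p = 0.0756) beside -0.31 (SE 0.37) on the brighter.

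**Figure D4:**
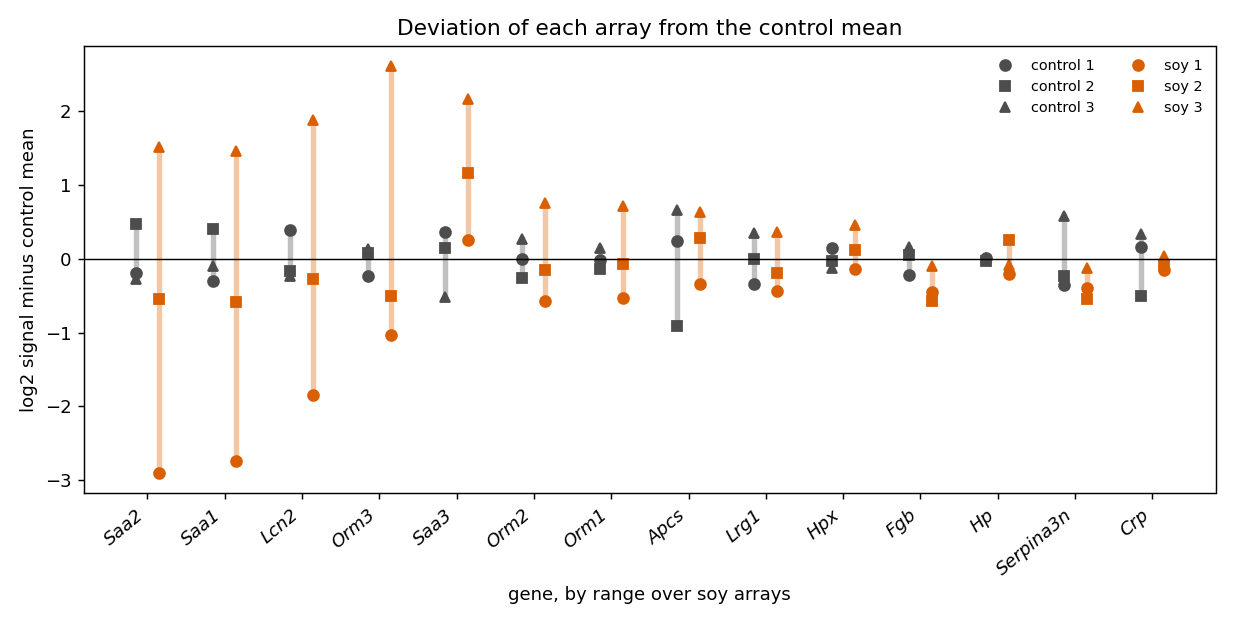
Log2 signal of each array minus the mean of the control arrays (vertical axis), for the 10 acute phase genes and for Orm3, Lrg1, Fgb and Serpina3n (horizontal axis, ordered by range over the soy arrays). Points are arrays, grey for control and orange for soy, and bars join the lowest and highest array of a group. For Saa1, soy 1 lies at -2.74 and soy 3 at 1.46 from the control mean, while for Crp and Hp every soy array stays at most 0.26 from it.

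Of 8 negative acute phase proteins, 0 passed by the brightest probe, beside 0.458% of all genes, 3 were higher and 5 lower in soy, and the median change was -0.064. At an unadjusted p under 0.05 in limma there were 0, beside 14.3% of all genes. Ttr, the carrier of thyroid hormone, was measured by a brighter probe (0.059, SE 0.12) and by a dimmer probe of opposite direction (-0.39, SE 0.13, unadjusted p = 0.0146, limma adjusted p = 0.286), whose groups did not overlap. Alb, the main plasma protein, was 18.99, 18.99 and 19.01 in control and 18.99, 18.92 and 18.66 in soy, a change of -0.14 (SE 0.11, limma adjusted p = 0.690), the lowest of the list. Soy 3 was its lowest array. Serpina6, which carries corticosteroids, had the largest positive difference (0.076, SE 0.19). Ahsg, which keeps calcium phosphate in solution, changed by -0.058 (SE 0.12) and Rbp4, the carrier of retinol, by 0.0027 (SE 0.11).

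For the signalling genes upstream of the response, 0 of 20 passed, beside 0.458% of all genes, with 4 higher and 16 lower in soy and a median of -0.25. At an unadjusted p under 0.05 in limma, 4 were lower (Il1r1, Lifr, Osmr and Cebpb) and 0 higher, beside 7.04% of all genes that were lower at this level. The groups did not overlap for 5 of the 20, beside 20.4% of all genes. Il1r1, the receptor of interleukin 1, was 13.34, 12.64 and 12.93 in control and 11.49, 11.37 and 12.09 in soy, a change of -1.32 (SE 0.24, limma adjusted p = 0.0804), the lowest of the list. Lifr, the receptor of leukaemia inhibitory factor, was 15.08, 15.09 and 15.48 in control and 14.38, 14.28 and 14.41 in soy, a change of -0.86 (SE 0.13, limma adjusted p = 0.0529). Dimmer Lifr probes changed by -1.29 (SE 0.28, limma adjusted p = 0.127) and -1.37 (SE 0.26, limma adjusted p = 0.0942), also without overlap. For both genes all soy values lay below all control values, without passing, and soy 1 and soy 3 were close to each other for Lifr. Cebpb, a C/EBP factor of this response, changed by -0.66 (SE 0.21, limma adjusted p = 0.293). Cebpd, another C/EBP factor, changed by -0.69 (SE 0.32, limma adjusted p = 0.472), and Il6ra, the receptor of interleukin 6, by -0.77 (SE 0.34, limma adjusted p = 0.445). Cebpa, a further factor of the C/EBP family, had the largest positive difference (0.27, SE 0.22). Socs3, the feedback inhibitor that STAT3 induces, was 12.91, 13.43 and 11.56 in control and 11.61, 11.88 and 12.53 in soy. Stat3 itself was 13.77, 13.71 and 13.67 in control and 13.22, 13.25 and 13.73 in soy, while a dimmer Stat3 probe changed by -0.44 (SE 0.12, limma adjusted p = 0.225) without overlap. Soy 3 was the highest soy array for both, but control 1 exceeded it for Stat3, and control 1 and control 2 for Socs3. Socs1, another such inhibitor, was 7.84, 7.56 and 7.43 in control and 7.25, 7.58 and 8.01 in soy. It was the 1 gene of these 20 with soy 1 lowest and soy 3 highest of all 6 arrays. This order was seen for 6 of the 10 acute phase genes and 3 of the 14 other positive acute phase proteins. Among the soy arrays alone, it was seen for 7 of these 20, 9 of the 10 and 5 of the 14. Of the 8 Kupffer cell markers, 1 had this order over all 6 arrays and 7 had it among the soy arrays. These counts were 0 and 4 for the 7 inflammatory cytokines, 1 and 3 for the 6 clearance genes below, and 1 and 1 for the 8 negative acute phase proteins. The share of all probes with this joint order was not computed. No gene of the 20 had a soy range above 1.

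Of the 7 inflammatory cytokines, 1 passed, Tnf, which was lower in soy on its brighter probe only (0.170% of all genes passed as lower). Its brighter probe (NM_013693) was 12.36, 12.32 and 13.03 in control and 10.88, 11.02 and 10.82 in soy, so the groups did not overlap. Another Tnf probe was 6.41, 6.62 and 6.61 in control and 6.35, 6.65 and 6.65 in soy. It was well above background on 0 arrays, so its difference of -0.0028 is not an exact change. The Tnf probes thus disagree widely on the level of this RNA, and whether the brighter one measures Tnf was not tested. On the brighter probe the change was -1.66 (SE 0.19, limma adjusted p = 0.0257). The adjusted p was above 0.05 with each array but control 3 left out (0.0516 to 0.104), with the replicate number as a block (0.0685) and with slide as a block (0.104), while the change stayed between -1.79 and -1.62 in these settings. Soy 1 and soy 3 did not differ for this gene as they did for Saa1. Il6 was well above background on the 3 control arrays and on 0 soy arrays, so its difference (-0.10, SE 0.11) is not an exact change. Another Il6 probe and Osm, an interleukin 6 family cytokine, were well above background on 0 arrays. Cxcl1, a neutrophil attractant that the liver makes, was 12.99, 13.62 and 10.30 in control and 11.45, 11.15 and 12.35 in soy, so both groups varied widely (change -0.66, SE 0.79, limma adjusted p = 0.799). Ccl2, a monocyte attractant, changed by -0.68 (SE 0.26) at an unadjusted p of 0.0333 and a limma adjusted p of 0.381. Il1b, another inducer of the response, changed by -0.23 (SE 0.14, limma adjusted p = 0.600).

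The proteins that clear the ligands of the acute phase proteins did not pass (0 of 6, beside 0.458% of all genes). Of these, 3 were higher and 3 lower, with a median of -0.069. At an unadjusted p under 0.05 in limma, 1 of the 6 was lower (Hmox1), beside 7.04% of all genes, and its groups did not overlap, beside 20.4% of all genes. Hmox1, which degrades haem, changed by -0.34 (SE 0.13, limma adjusted p = 0.387). Cd163, the macrophage receptor for haptoglobin bound to haemoglobin, changed by 0.034 (SE 0.25). Lrp1, the receptor for hemopexin bound to haem, changed by -0.23 (SE 0.16). Scarb1, a lipoprotein receptor that takes up serum amyloid A, changed by -0.14 (SE 0.18), and Fpr2, a formyl peptide receptor that binds it, had the largest positive difference (0.17, SE 0.11).

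**Figure D5:**
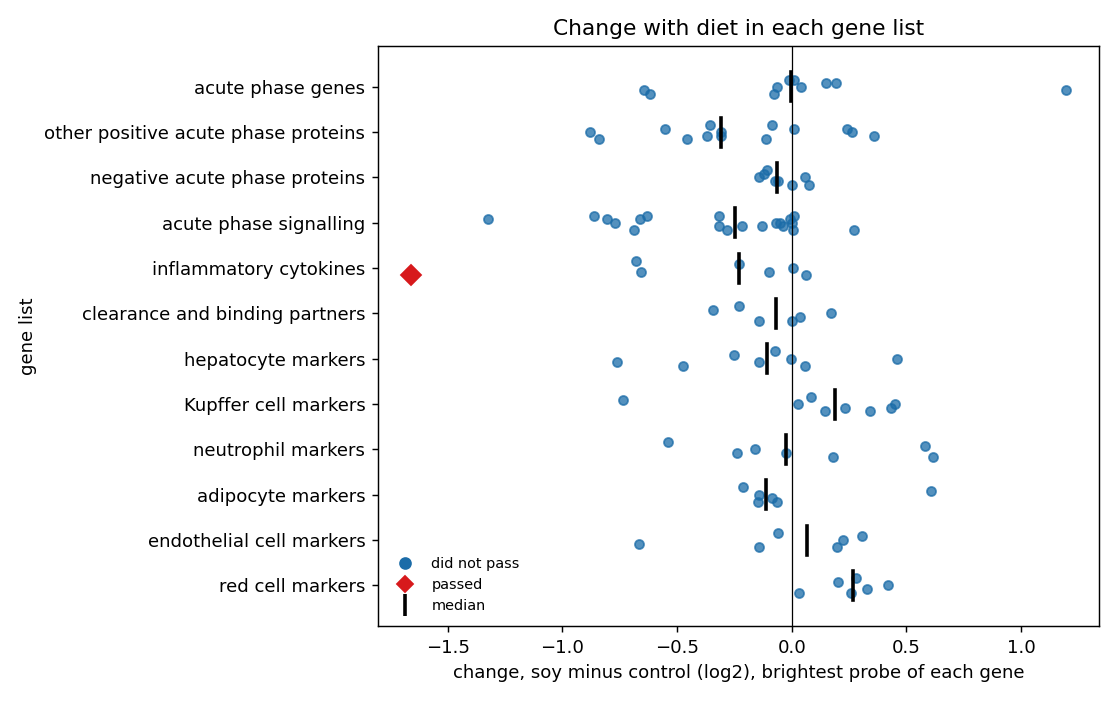
Change with diet (log2, soy minus control, horizontal axis) of each gene by its brightest probe, for each gene list (vertical axis). Blue points did not pass, the red diamond is Tnf (-1.66), which passed, and black bars are list medians. The acute phase genes lie around 0 except Saa3 (1.19), Saa1 (-0.62) and Saa2 (-0.64).

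Markers of other liver cells were read on the same arrays. No gene of the cell type lists passed (0 of 41 by the brightest probe, with the hepatocyte markers), beside 0.458% of all genes. At an unadjusted p under 0.05 in limma, 1 was higher (Apob) and 3 were lower (Cps1, Tat and Camp), where 14.3% of all genes reached this level. All 8 Kupffer cell markers were well above background on all arrays. Their summed signal (log2) was 15.23, 15.70 and 15.91 in control and 15.56, 15.82 and 16.11 in soy. Cd5l, the brightest of them, was 13.96, 14.28 and 14.60 on the soy arrays, so it was also lowest on soy 1 and highest on soy 3, over 0.65. The next brightest, Csf1r and Clec4f, were 13.67, 13.92 and 14.05 and 13.50, 13.62 and 14.05 on the soy arrays, again with soy 1 lowest and soy 3 highest. A dimmer Csf1r probe was 11.75, 11.36 and 11.55 there, with soy 1 highest, and changed by 0.43 (SE 0.17, limma adjusted p = 0.409). Of the 8 markers, 7 were higher and 1 lower in soy, with a median change of 0.19. Cd5l had the highest change (0.45, SE 0.24, limma adjusted p = 0.539) and Marco, a scavenger receptor, the lowest (-0.73, SE 0.45, limma adjusted p = 0.589). Of the neutrophil markers 7 of 8 were measured, and Ltf and Ngp were well above background on no array. Their summed signal was 12.69, 12.78 and 13.02 in control and 12.78, 12.82 and 12.58 in soy. Elane, the brightest and so the largest part of this sum, was 12.15, 12.03 and 11.72 on the soy arrays. S100a8 and S100a9, defining neutrophil genes, were 9.01, 9.29 and 9.07 and 10.08, 10.44 and 10.31 there, beside 7.96, 9.05 and 8.61 and 9.09, 10.36 and 9.52 in control. Of the 7 markers, 3 were higher and 4 lower in soy. S100a9 had the highest change (0.62, SE 0.29, limma adjusted p = 0.482), followed by S100a8 (0.58, SE 0.26, limma adjusted p = 0.445), and Camp the lowest (-0.54, SE 0.19, limma adjusted p = 0.325). Mpo was well above background on the control arrays alone. Of the adipocyte markers, Adipoq and Plin1 were well above background on no array and Retn on 2 control arrays. Fabp4, the brightest, was 10.44, 10.75 and 10.87 on the soy arrays, Cidec 11.23, 9.54 and 9.72, and Lep 10.42, 10.61 and 10.35. The summed signal of the list was 12.40, 12.08 and 12.08 on the soy arrays. Hepatocyte markers summed to 20.74, 20.69 and 20.61 on the soy arrays, and Tat had the lowest change among them (-0.76, SE 0.26, limma adjusted p = 0.323). Endothelial markers summed to 15.40, 15.59 and 15.47 on the soy arrays, with Clec4g, Stab2 and Kdr the brightest and changes from -0.66 (Lyve1) to 0.31 (Kdr). Red cell markers, led by Hba-a1, Hba-a2 and Hbb-bt, summed to 18.10, 19.30 and 18.43, highest on soy 2. Alas2 had the highest change of the list (0.42, SE 0.62, limma adjusted p = 0.842). The part of Kupffer cells, neutrophils, adipocytes, endothelial cells and red cells in the spread of the acute phase genes was not tested.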

How the data were processed

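Liver RNA of 3 control and 3 soy-fed mice was measured with 1 array per mouse. The authors scanned 1-colour Agilent mouse expression arrays, and per the file headers the deposited output of Feature Extraction 11.5.1.1 gives the median intensity of each spot and its background, unscaled. The authors also deposited a log2 table whose columns share their quantiles, used only as an alternative. Here median intensities were corrected with normexp (offset 50), quantile normalized and log2 transformed, outlier spots were left out and spots of a probe averaged. All 56605 probes were fitted with limma 3.58.1 (lmFit, eBayes) in R 4.3.3, with Benjamini-Hochberg adjustment. Symbols came from RefSeq accessions (GRCm38.p6, 58.3% of probes). Tables and plots used Python 3.11.15, pandas 2.3.3 and matplotlib 3.10.9. The fit was tested on simulated data. The members, the gene lists and the rule for naming genes (all 10 genes, and of each other list the genes that passed, the highest and lowest change and the 3 brightest, and markers not well above background) were chosen with earlier results of these data known. Saa4, Lbp, Lrg1, Serpina3n, Fga, Stat3, Socs3, Socs1, Il6, Il1b, Cd163, S100a8 and a few others are named beside the rule, after their values were seen, and 1 listed gene is not reported here. Alternatives were other background corrections and scalings, a filter on dim probes, outlier spots kept, other variance settings, probe means per gene, replicate or slide as a block, the deposited log2 table, the p threshold without the fold rule, and leaving out 1 array at a time. The 3 mice of a group are biological replicates per the series' design.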

Additional observations from a re-analysis of the deposited data

How the results depend on the processing

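The count of acute phase probes that passed was 0 under all 18 alternatives, and the smallest adjusted p of any acute phase gene was 0.138 (Saa3). Of 131 recomputed changes of single genes, 106 kept their sign and 25 turned (5 further settings alter the test and not the estimates of these genes), in genes whose change was within its SE of 0. Orm1 turned with the processed signal (-0.039), the 75th percentile shift (-0.030) and slide as a block (-0.018). Orm2 turned with the same settings (-0.0097, -0.026 and -0.043), Apcs with slide as a block (-0.013), and Hp with the processed signal (0.020) and cyclic loess (0.034). The other changes with slide as a block were -0.92 (Saa1), -0.97 (Saa2), 1.15 (Saa3), -0.12 (Crp), -0.16 (Hp), 0.14 (Hpx) and -0.22 (Lcn2). With 1 array left out the changes ranged from -1.66 to 0.44 (Saa1), -1.72 to 0.49 (Saa2), 0.71 to 1.66 (Saa3), -0.30 to 0.33 (Orm1), -0.36 to 0.30 (Orm2), -0.32 to 0.11 (Crp), -0.26 to 0.52 (Apcs), -0.15 to 0.087 (Hp), -0.0042 to 0.29 (Hpx) and -1.06 to 0.81 (Lcn2). Lcn2 turned without control 1, soy 1 or soy 2, Crp without control 1 or control 3, and Hpx without soy 3. The range over the soy arrays was 4.02 to 4.20 for Saa1, 4.26 to 4.42 for Saa2 and 3.70 to 3.86 for Lcn2 over 5 other scalings, a comparison chosen after seeing the data. That of Hp was 0.47 and became 0.72 with the processed signal, 0.72 with the 75th percentile shift and 0.67 with cyclic loess, and that of Orm1 was 1.26 and became 1.11 with the processed signal.

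Over all probes 198 passed (118 higher, 80 lower). The count was 77 with an offset of 16, 13138 with the processed signal (11924 higher, 1214 lower), 299 with the 75th percentile shift (202 higher, 97 lower), 493 of 32375 probes well above background, 24 with slide as a block, and 23 to 199 with 1 array left out (23, 25 and 50 when soy 3, soy 2 or soy 1 was dropped, and 71 and 102 when control 2 or control 1 was). The cause was not tested. The processed signal and the 75th percentile shift move the median of all probes to 0.13 (log2). With the replicate number as a block 77 probes passed and no acute phase probe did. Same-numbered mice correlated by 0.12, -0.060 and 0.097 in their deviations from the group means, and differently numbered mice by -0.21 to 0.10. With so few mice these values cannot settle whether the numbers pair the mice.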

Other observations

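Dbp, Elovl3 and Syp were also among the 15 probes with the widest range over the soy arrays. Dbp, a clock-controlled transcription factor, was 15.85, 15.97 and 14.86 in control and 14.27, 13.86 and 10.76 in soy, lowest on soy 3. Elovl3, a fatty acid elongase with a daily rhythm in liver, was 13.50, 13.19 and 13.85 in control and 11.57, 13.55 and 15.04 in soy, lowest on soy 1 and highest on soy 3 as Saa1 was. Syp, a synaptic vesicle gene, was 12.09, 11.99 and 12.33 in control and 12.15, 14.78 and 11.88 in soy, high on soy 2 only. These genes were picked after their values were seen, and no test was made of them. The hour at which livers were collected is not given in the sources used here, and its part in these ranges was not tested.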
